A study of Mus musculus with 11 samples.

Results

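Arterial and arteriolar endothelial cells of the mouse brain were picked from single-cell libraries by sums of raw UMIs (unique molecular identifiers, the counted mRNA molecules). A barcode entered with at least 500 genes, at most 10% mitochondrial UMIs, at least 4 UMIs of the endothelial genes Cldn5, Flt1 and Itm2a, and at most 2 UMIs of P2ry12, Cx3cr1, Vtn and Myh11, which mark microglia and mural cells. It also needed at least 3 UMIs of the arterial genes Gkn3, Bmx, Sema3g and Vegfc, no UMI of the venous genes Il1r1, Adgrg6 and Col6a6, and at most 2 UMIs of the large-artery genes Pi16, Ccn3, Lypd1, Fbln5 and Cytl1. The rule found 4761 cells among 66658 deposited barcodes, of which 61625 passed the 2 quality limits and 38627 were endothelial by the first 2 sums. The median member held 5629 UMIs and 2453 genes. Because the same UMIs chose the cells, levels of the members set beside those of other cells are a description without a test. The only test that used both was of whether the genotype difference differed between members and capillary-like cells.

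The cells came from 11 mice that carried human NOTCH3 in addition to mouse Notch3, from brains digested into microvascular fragments and captured on CD31 antibodies. The 6 CADASIL mice carried the mutant transgene (TgN3 R182C, line code Tg350), and the 5 control mice carried the wild-type transgene (TgN3, line code Tg100). Each genotype was thus represented by a single line, there were no mice without a transgene, and all were untreated. The CADASIL group held 3 mice of 9 months and 3 of 6 months (4 females and 2 males), and the control group 2 mice of 9 months and 3 of 6 months (3 females and 2 males). The labels give 4 preparation batches, of which batches 1 and 2 held the mice of 9 months and batches 3 and 4 those of 6 months, and batch 2 held a single CADASIL mouse. CADASIL is a hereditary small vessel disease caused by NOTCH3 mutations that lead to accumulation of the receptor's extracellular domain around mural cells.

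Arterial endothelial cells line the vessels that bring blood into the brain and sit inside smooth muscle, whereas capillary endothelial cells carry most of the exchange of nutrients between blood and brain. Arterial identity is set by VEGF and Notch signalling: ligands such as Dll4 and Jag1 activate Notch receptors on neighbouring cells, and the cleaved receptor joins the DNA-binding protein RBPJ to switch on targets such as Hey1. Arterial endothelium also couples to smooth muscle through gap junctions and vasoactive signals, and lays down an elastic matrix.

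Bmx (a cytoplasmic tyrosine kinase) and Gkn3 (a secreted gastrokine) are both arterial genes of the gate, and the 250 bases before their start sites are shown because Notch acts on its targets through RBPJ. The sequences are from RefSeq (GRCm38.p6, minus strand in both), 5′ to 3′, and capitals mark the core RBPJ motif TGGGAA, searched on both strands. The Gkn3 window is chr6:87388936-87389185 and held no match, and the Bmx window is chrX:164258194-164258443 and held 1 match.
Gkn3: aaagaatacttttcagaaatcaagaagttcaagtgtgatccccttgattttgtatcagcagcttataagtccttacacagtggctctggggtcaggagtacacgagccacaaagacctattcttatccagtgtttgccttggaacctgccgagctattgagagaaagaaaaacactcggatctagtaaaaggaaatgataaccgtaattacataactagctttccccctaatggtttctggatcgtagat
Bmx: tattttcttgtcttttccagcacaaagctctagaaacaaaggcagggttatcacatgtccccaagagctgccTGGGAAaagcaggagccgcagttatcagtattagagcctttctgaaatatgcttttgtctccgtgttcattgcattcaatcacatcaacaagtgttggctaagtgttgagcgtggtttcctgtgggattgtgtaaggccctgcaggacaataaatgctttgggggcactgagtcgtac
The motif stood in 7094 of all 32851 windows of this length (21.59%). Of the 4 arterial gate genes and the 20 leading genes of the profile described below, 18 had an entry, with 25 windows, and 5 of those windows held it. They belonged to Atp2b4, Bmx, Col18a1, Plcg2 and Wnt5b. A match is a description of letters, and these windows held it about as often as all windows did.

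Among the members, 66.75% held a UMI of Gkn3, 74.88% of Bmx, 71.98% of Sema3g (a secreted semaphorin) and 77.71% of Vegfc (a growth factor of the VEGF family). In 9901 microglia-like barcodes, with at least 3 UMIs of P2ry12 and Cx3cr1 and no endothelial UMI, the same shares were 0.596%, 0.364%, 0.313% and 0.616% at a median of 5102 UMIs. All 4 genes were seen together in 1666 members (34.99%), 3 in 1444, 2 in 1223 and a single gene in 428, and the median arterial sum was 8 UMIs. Egfl8, a secreted EGF-domain protein given as a marker of these cells but left out of the gate, lies on chr17:34613349-34615971. It read 154, 158, 177, 219, 226 and 247 counts per 1000000 UMIs (CPM) of the members in the 6 CADASIL mice and 166, 170, 176, 243 and 278 CPM in the control mice. The capillary-like cells of the same mice held 5.31 to 17.4 CPM, so no mouse overlapped. Egfl8 thus set the members apart from capillaries but not from large arteries: large-artery cells, which are described below, held 216 CPM ± 58.3 (SD, n = 11) against 201 CPM ± 42.5 in the members, which were higher in 6 of 11 mice.

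Traces of other cells were present. Summed markers of smooth muscle ranged from 13.7 to 316 CPM per mouse, highest in R182C-TgN3 4 and at most 95.7 in the others. Microglial markers ranged from 291 to 735 CPM, erythroid markers from 1985 to 12841 CPM and choroid plexus markers from 10.9 to 3028 CPM, nearly all of it Ttr. Fibroblast markers stayed at 1.63 to 12.0 CPM, except 53.6 CPM in WT-TgN3 4. The pericyte sum was 9.16 to 84.5 CPM, that of astrocytes 49.4 to 134 CPM and that of oligodendrocytes 10.9 to 24.5 CPM. WT-TgN3 5 stood apart: its members held Prl and Gh, the pituitary hormones prolactin and growth hormone, at 6474 and 428 CPM, whereas members of the other 10 mice held none. Of its 22718 Prl UMIs, 22498 lay in 10 cells, and Gh was found in 284 of its 497 members. This library also had 36 of the 69 members with more than 1 UMI of Plvap, a protein of fenestrated capillaries, and the share, the counts of called genes, the gene lists and the main values of the classes are given below also without it. The neuronal sum of 415 to 760 CPM was mostly Stmn2, described with the profile. Library totals were 17550806 to 64215050 UMIs, and 1 member barcode sequence occurred in more than 1 library.

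Arterial and arteriolar cells made up 9.73% to 16.0% of the endothelial cells of a mouse. The share was 12.0% ± 1.61 (SD, n = 6) in CADASIL mice and 12.8% ± 2.18 (SD, n = 5) in control mice, a difference of -0.876 percentage points (two-sided exact permutation test over the 11 mice, p = 0.468). Both groups overlapped over most of their range, 9.73% to 14.4% and 10.1% to 16.0%. Within batches the difference was -0.658 points in batch 1, -2.37 in batch 3 and 0.889 in batch 4, with a mean of -0.713 (exact permutation within batches, 72 splits, p = 0.389). Since the gate counts raw UMIs, cells were also thinned to 2000 UMIs, which left out 6481 kept barcodes. The thinned shares were 10.6% ± 1.19 (n = 6) and 11.6% ± 2.24 (n = 5), with an exact permutation p of 0.381. Without WT-TgN3 5 the difference was -1.03 points (exact permutation p = 0.448, n = 6 and 4), and without WT-TgN3 4 it shrank to -0.0906 points (p = 0.933). In a dissociated sample, cell shares also depend on how well each vessel type was recovered.

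**Figure D1:**
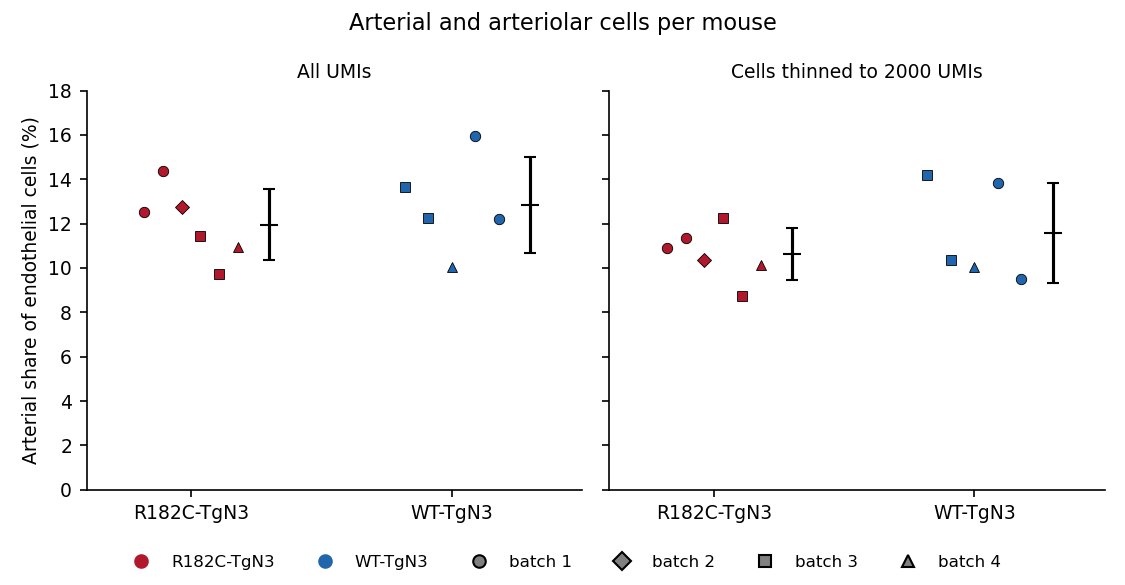
Arterial and arteriolar cells as a percentage of endothelial cells, per mouse, by genotype, with all UMIs (left) and after thinning every cell to 2000 UMIs (right). Points are mice, lines are group means with SD, and the groups overlap in both panels.

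The members carried a broad arterial programme outside the gate. Against 13760 capillary-like cells (endothelial, no UMI of the arterial, venous or large-artery genes, at most 1 of Plvap), 1420 of the 10645 genes at 5 CPM or more were higher in the members of all 11 mice (13.3%) and 1109 were lower (10.4%). Among genes of at least 50 CPM, 135 were at least 2-fold higher and 74 at least 2-fold lower with the same direction in every mouse, and 139 and 76 without WT-TgN3 5. Folds are ratios of mean CPM with 1 CPM added to each, which understates those of rare genes. Levels are molecules seen at the 3′ end and are compared within a gene, between cells. The cell sets differed in median depth: 3766 UMIs in capillary-like, 5629 in members, 7146 in large-artery and 7801 in venous cells.

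Mgp, the matrix Gla protein that inhibits calcification of arteries, was the most abundant of the leading genes. It read 604 to 1045 CPM in CADASIL mice (median 780) and 496, 499, 600, 769 and 883 CPM in control mice, against 2.28 to 86.5 CPM in capillary-like cells, a 38.2-fold difference of the means. Large-artery cells, 2368 cells with at least 3 UMIs of the large-artery genes, held still more, 2287 CPM ± 663 (SD, n = 11). Set against all other endothelial cells, large-artery cells included, the log2 ratio of Mgp was 1.103 rather than 5.26. Their lowest value, 840 CPM, was in WT-TgN3 5, whose large-artery cells also held Gh at 4817 CPM. Nos1, the neuronal nitric oxide synthase (chr5:117781032-117958840), was at 70.8 CPM ± 22.6 in the members and 1.45 CPM ± 1.64 in capillary-like cells (SD, n = 11). Its level was highest in large-artery cells, at 191 CPM. Nos3, the endothelial nitric oxide synthase, hardly differed: 230 CPM ± 25.9 against 215 CPM ± 27.1, higher in 9 of 11 mice.

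Other leading genes encode matrix and secreted proteins. Fbln2, a fibulin of the elastic matrix, was at 156 CPM ± 22.7 against 7.96 CPM, Npnt, the integrin ligand nephronectin, at 54.0 against 1.59 CPM, and Col18a1, a basement membrane collagen, at 69.3 against 2.31 CPM. The Wnt ligand Wnt5b stood at 59.7 CPM against 5.70 CPM. Tmem100, a membrane protein induced by BMP9 and ALK1 signalling in arterial endothelium, was at 173 CPM ± 52.3 against 8.74 CPM. Genes of calcium and membrane signalling among the 20 were Atp2b4 (a plasma membrane calcium pump, 95.1 against 5.70 CPM), Plcg2 (a phospholipase C, 86.4 against 5.53 CPM) and Syt15 (a synaptotagmin, 57.7 against 1.53 CPM). Igfbp3, which binds insulin-like growth factors, was at 84.7 CPM against 4.19 CPM in capillary-like cells and 44.7 CPM in venous cells, so that it separates the members from capillaries more than from veins. The rest of the 20 were Epb41l4a, Ldb2, Tiam2, Tspan2, Sncaip and Antxr1, at 58.6 to 170 CPM in the members and 3.17 to 9.90 CPM in capillary-like cells. Fbln2, Npnt, Col18a1, Tmem100, Atp2b4, Plcg2, Ldb2 and Tspan2 exceeded large-artery cells in 0 of 11 mice. Npnt and Col18a1, for example, were at 145 and 168 CPM in large-artery cells. Epb41l4a and Sncaip exceeded them in 1 and 2 mice, Antxr1, Syt15, Tiam2 and Wnt5b in 5, 6, 7 and 8, and Igfbp3 in 10.

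The remaining pair are long non-coding RNAs that neighbour each other. Gm33206 (chr3:29773466-29893177, minus strand) was at 68.2 CPM ± 19.7 in the members, 0.290 CPM in capillary-like, 0.105 CPM in venous and 57.1 CPM in large-artery cells. Mannr (chr3:29891014-29924191, plus strand) was at 144 CPM ± 23.2, 3.83, 0.587 and 118 CPM in the same order. The annotated spans overlap by 2164 bases on opposite strands, so reads from the overlap belong to either gene according to strand. Mecom, the protein-coding gene next to Mannr (chr3:29951296-30548008, named after its values were seen), showed no such restriction, with 1460 CPM ± 218 in the members and 1270 CPM ± 206 in capillary-like cells.

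The genes that the members had least of, relative to capillaries, were led by Car4, the carbonic anhydrase of capillary surfaces (chr11:84957786-84966044). It was at 51.9 CPM ± 11.8 (SD, n = 11) in the members and 718 CPM ± 48.9 in capillary-like cells, 13.6-fold more in the latter. Slc38a5, an amino acid transporter, was at 8.75 against 115 CPM, Tmsb10, which binds actin monomers, at 111 against 879 CPM, and Ndnf, a secreted neuron-derived factor, at 59.1 against 345 CPM. Unc13c, Adgrl3, Ttyh2, Flrt2, Fmo2 and Gm20631 completed the 10, at 11.4 to 27.9 CPM in the members and 79.2 to 210 CPM in capillary-like cells. In venous cells Slc38a5, Tmsb10, Ndnf, Flrt2, Unc13c, Adgrl3 and Fmo2 were higher still, at 321, 1481, 423, 562, 290, 239 and 193 CPM. Car4, Ttyh2 and Gm20631 were at 628, 64.1 and 31.4 CPM there, below capillary-like cells.

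**Figure D2:**
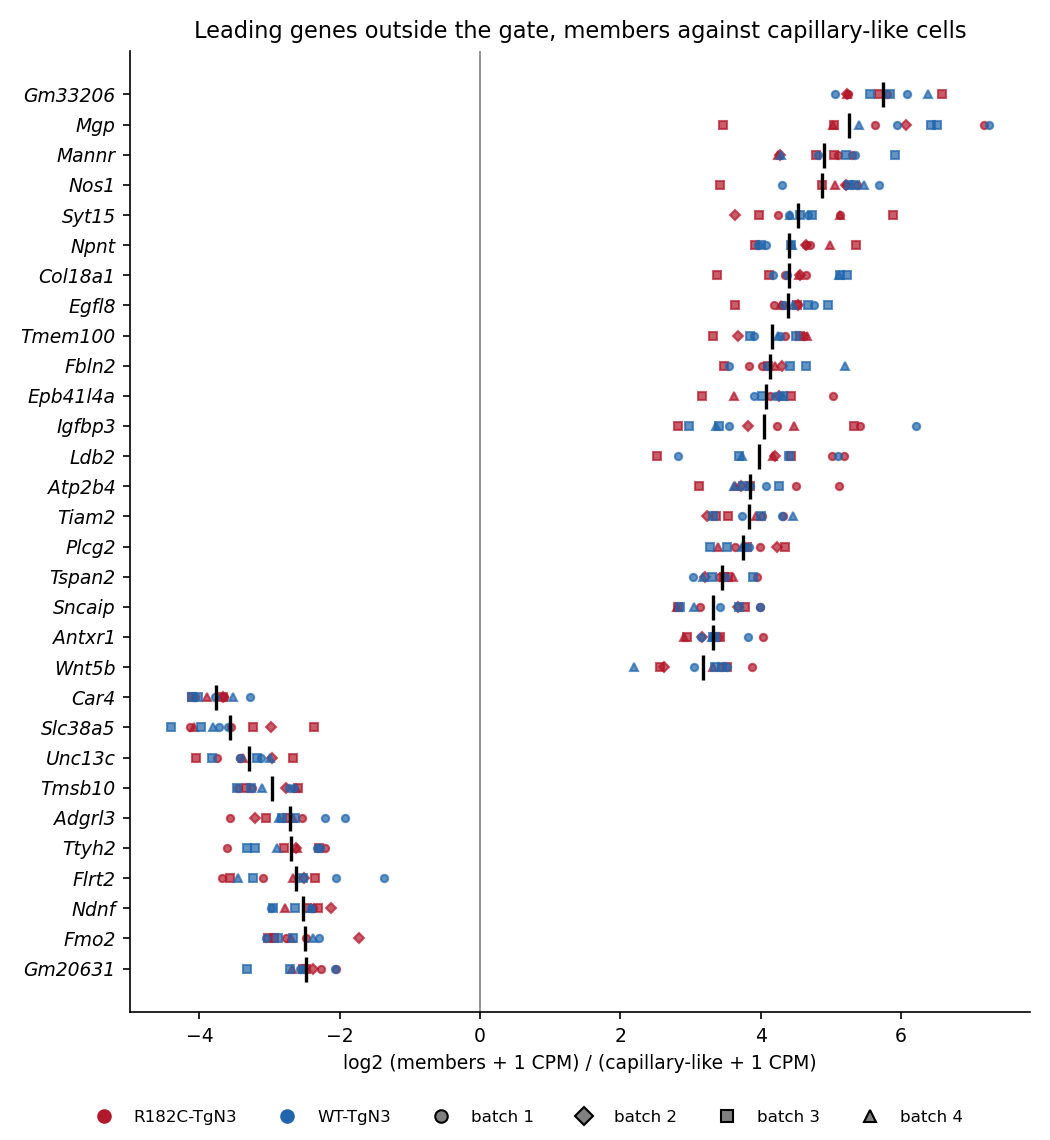
Log2 ratio of CPM, members over capillary-like cells with 1 CPM added, for the 20 highest and 10 lowest leading genes outside the gate. Points are the 11 mice, and every point of a gene lies on the same side of 0.

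Of the arterial identity list, 18 of 19 measured genes were higher in the members of all mice and Nrp1, a co-receptor of VEGF and semaphorins, was lower in all, with a median log2 ratio of 2.19 against -0.01 over all genes. Several of these genes are classical arterial labels and the list was chosen with the gate known. Efnb2, the ligand ephrin-B2, was at 174 CPM ± 28.3 in the members, 39.9 in capillary-like and 18.8 in venous cells. Unc5b, a netrin receptor, was at 162 CPM ± 26.2 against 34.8 in capillary-like cells and was above large-artery cells (108 CPM) in 11 of 11 mice. Tgfb2 (chr1:186622792-186705989), a TGF-beta ligand, was at 507 CPM ± 104 against 165, and Sox17, an arterial transcription factor, at 424 CPM ± 64.3 against 256 CPM.

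In the Notch pathway list, 11 of 25 measured genes were higher in all mice and 4 were lower, with a median log2 ratio of 0.06. The ligands Dll4, Jag1 and Jag2 were among those higher in all mice, and the ligand Dll1 was in neither group. Dll4 (chr2:119325784-119335962) was at 129 CPM ± 25.1 against 56.1 CPM in capillary-like cells and 116 CPM in large-artery cells, Jag1 at 91.0 against 30.0 and 190 CPM, and Jag2 at 255 against 90.5 and 320 CPM. Jag1 and Jag2 thus stood below large-artery cells in every mouse, whereas Dll4 stood above them in 9 of 11. The receptors Notch1 and Notch4 were at 243 against 147 CPM and 95.4 against 45.7 CPM in members and capillary-like cells. Among targets, Hey1 (chr3:8663359-8667256) was at 98.7 CPM ± 19.5 against 16.4 in capillary-like and 2.06 in venous cells, and Nrarp, a feedback inhibitor, at 30.2 against 12.3 CPM. Hes1, another target, went the other way, with 238 CPM ± 54.4 against 298 CPM ± 64.2, lower in 11 of 11 mice. Numb, Adam17, Psen2 and Ncstn were also higher in all mice, and Mfng, Adam10 and Aph1a lower. Mouse Notch3 and the human transgene, both expressed mainly by mural cells, were near 0: 1.02 to 5.42 CPM and 0.496 to 4.58 CPM in the members, and 1.37 to 6.25 CPM and 0 to 3.39 CPM in capillary-like cells.

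Genes that connect the endothelium to smooth muscle and set vessel tone were mostly on the higher side. Of 4 connexins, Gja4 (connexin 37) was at 41.0 CPM ± 10.4 against 1.85 CPM in capillary-like cells, Gja5 (connexin 40) at 12.3 against 0.465 and Gja1 (connexin 43) at 52.8 against 26.2, while Gjc1 (connexin 45) was at 77.8 against 135 CPM. Gja4 and Gja5 were higher again in large-artery cells, 70.9 and 24.6 CPM, and Gja1 was not (27.4 CPM). Of 13 measured vasoactive genes, 7 were higher in all mice and Ptges was lower. The vasoconstrictor Edn1 was at 399 CPM ± 88.5 against 163 CPM, the angiotensin-converting enzyme Ace at 32.9 against 5.94, the calcium channel Trpv4 at 49.1 against 10.9 and the inward rectifier Kcnj2, a sensor of potassium, at 30.6 against 12.8 CPM. The calcium-activated potassium channels Kcnn3 and Kcnn4, which hyperpolarise arterial endothelium, were seen mainly in large-artery cells (11.9 and 20.1 CPM) and were at 0.447 and 3.04 CPM in the members. None of 10 shear-response genes was higher in all mice, and Kdr, the main VEGF receptor, was lower, at 325 against 548 CPM.

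**Figure D3:**
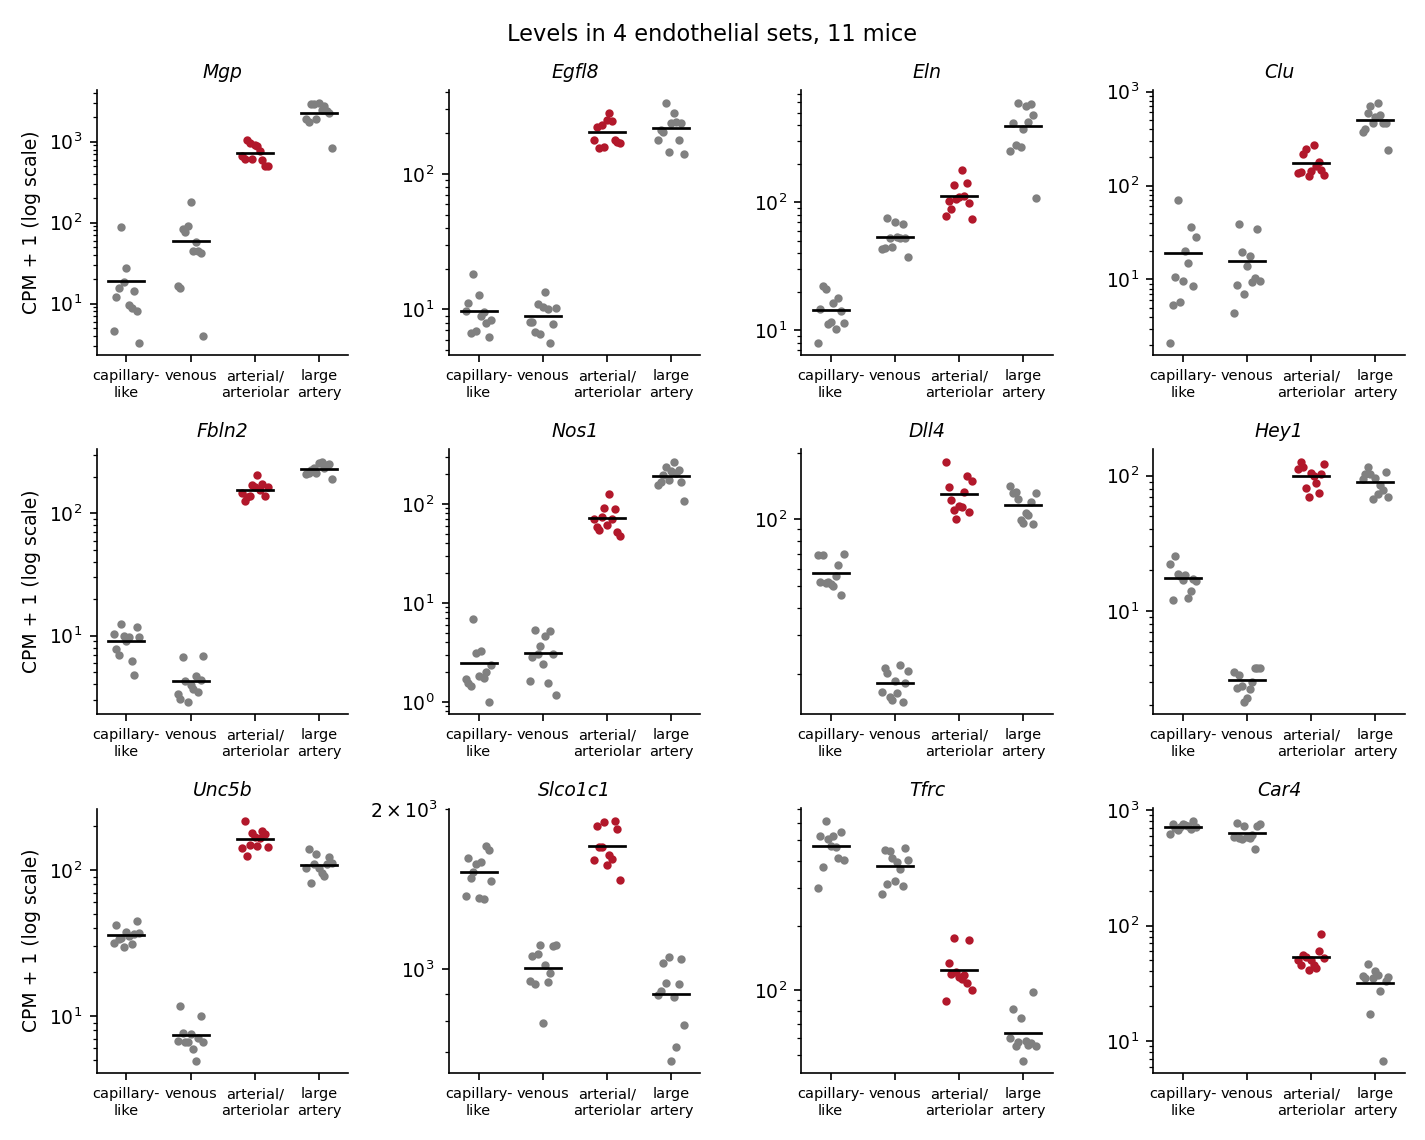
CPM + 1 per mouse (log axis) in capillary-like, venous, arterial and arteriolar, and large-artery endothelial cells, for 12 genes of arterial, matrix and transporter function. Points are the 11 mice and lines are means, and for Mgp, Eln, Clu and Nos1 the mean of the arterial and arteriolar cells lies between those of capillary-like and large-artery cells.

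Matrix genes also stood mostly on the higher side: 18 of 27 measured vessel matrix genes were higher in all mice and 5 lower, with a median log2 ratio of 0.52. Eln, the elastin gene, was at 110 CPM ± 30.6 against 13.5 in capillary-like and 394 in large-artery cells, and Fbn1, which builds microfibrils, at 37.7 against 0.692 and 79.7 CPM. Timp3, a metalloproteinase inhibitor that accumulates in CADASIL vessels, was at 1122 CPM ± 127 against 393 and 2157 CPM. Ltbp4, a TGF-beta binding protein, was at 771 against 383 CPM, and Htra1, a protease mutated in a related hereditary small vessel disease, at 71.6 against 36.3 CPM.

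Blood-brain barrier transporters mostly ran the opposite way, with 15 of 21 measured genes lower in all mice, 4 higher and a median log2 ratio of -0.65. Slc7a5, which carries large neutral amino acids, was at 175 against 535 CPM, the lactate transporter Slc16a1 at 111 against 457, the transferrin receptor Tfrc at 123 against 468 and the organic anion transporter Slc22a8 at 118 against 330 CPM. The exceptions included the glucose transporter Slc2a1 (1366 CPM ± 116 against 950), the thyroid hormone transporter Slco1c1 (1707 ± 145 against 1521) and the taurine transporter Slc6a6 (2172 ± 170 against 1572). Slc2a1 and Slco1c1 exceeded large-artery cells (995 and 897 CPM) in 11 of 11 mice. Mfsd2a, a lipid transporter of the barrier, was at 119 against 171 CPM in capillary-like and 38.2 CPM in large-artery cells.

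Smaller shifts ran through other lists. Of 28 interferon genes, 17 were higher in all mice and none lower, with a median log2 ratio of 0.35: Ifitm3 was at 1337 against 748 CPM and Irf7 at 84.4 against 45.3 CPM. Of 8 caveola genes, 6 were higher in all mice, among them Cavin2 (472 against 346 CPM), while the caveolin Cav1 was at 310 CPM against 298 and higher in 7 of 11. The 6 include Plvap, which the choice of capillary-like cells held to at most 1 UMI, so its direction was bounded in advance. Of its 1331 UMIs in the members, 779 lay in WT-TgN3 5. None of 74 nuclear genes of oxidative phosphorylation was higher in all mice and 23 were lower, with a median of -0.11, and 10 of 13 mitochondrial genes were lower, with a median of -0.17. In the TGF-beta and BMP list 7 of 20 were higher and 2 lower, in ER stress 6 of 16 and 1, in glycolysis and hypoxia 4 of 17 and 6, in junctions 4 of 11 and 4, in guidance 4 of 13 and 4, in VEGF and angiopoietin 2 of 9 and 3, in leukocyte adhesion 2 of 7 and 2, and in dissociation stress 4 of 20 and 2. Vcam1, which holds leukocytes, was at 141 CPM ± 40.2 against 28.5, and the chemokine Cxcl12 at 1882 against 2782 CPM. Stmn2, a microtubule regulator best known from neurons, was at 495 CPM ± 45.0 in the members, 56.2 in capillary-like and 641 in large-artery cells. These lists were set beside backgrounds of 13.3% higher and 10.4% lower over all genes. Without WT-TgN3 5 the counts of genes higher or lower in all mice differed by 1 in the vessel matrix list (6 lower), barrier transporters (16 lower), interferon (18 higher), oxidative phosphorylation (24 lower) and dissociation stress (5 higher), and by 2 in the Notch list (6 lower). Among all genes 1484 were then higher and 1218 lower, and the median of the vasoactive list was 0.43 rather than 0.63.

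The members were not uniform. By arterial sum, 787 members sat at the limit of 3 UMIs, 933 had 4 or 5 and 3041 had 6 or more, while 1290 otherwise qualifying cells had 2 and stayed outside. From just outside to the highest class, Egfl8 read 29.1, 45.0, 57.1 and 261 CPM (means of 11 mice), and Mgp 200, 216, 318 and 909 CPM. Hey1 read 45.2, 63.8, 78.3 and 111 CPM, and Dll4 72.6, 76.4, 94.9 and 146 CPM. Car4 ran down the same classes, at 235, 154, 87.7 and 25.0 CPM. Cells just inside the limit thus lay close to those just outside it in Mgp and Dll4, and further from them in Egfl8, Hey1 and Car4. Some markers of other cells were also lowest in the highest class: Plvap was at 124, 110, 59.8 and 17.6 CPM and Dcn at 66.5, 18.9, 0.664 and 0.245 CPM. Over all members Dcn was at 27.3 CPM in WT-TgN3 4 and at most 1.145 CPM in the other mice. Its levels within the members thus rest largely on that library. Ttr (4126, 1289, 1988 and 238 CPM) and the microglial C1qa (52.9, 56.2, 40.5 and 26.7 CPM) did not fall at each step. Without WT-TgN3 5 Plvap was at 78.0, 58.7, 25.7 and 13.5 CPM, Egfl8 at 30.2, 45.5, 57.9 and 263 CPM and Mgp at 216, 234, 335 and 927 CPM. The median depth of the classes rose with the sum, from 4530 and 4505 to 4671 and 6275 UMIs.

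By large-artery sum, 3083 members held no such UMI and 1678 held 1 or 2, and 1934 further cells with the arterial sum but 3 or more stood outside. Across these 3 sets Mgp read 576, 975 and 2517 CPM, Eln 91.6, 140 and 434 CPM, the calcium-binding S100a6 39.2, 129 and 365 CPM, and the chaperone Clu 133, 229 and 556 CPM. The transporters ran down, with Slco1c1 at 1825, 1524 and 896 CPM and Mfsd2a at 140, 87.4 and 36.9 CPM. Hey1 (96.9, 102 and 94.4 CPM) and Dll4 (129, 129 and 125 CPM) stayed level. Without WT-TgN3 5 Mgp read 592, 1010.0 and 2664 CPM and Eln 93.9, 145 and 464 CPM. The median depth was 5374, 6138 and 7873 UMIs.

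Members that differed in Gkn3, itself a gate gene, also differed in other genes. This split was chosen after the values were seen. It compares 2109 members with at least 3 Gkn3 UMIs with 1583 members without any, at median depths of 6242 and 5405 UMIs. Members without Gkn3 passed the gate on Bmx, Sema3g and Vegfc alone. The sets were not matched for the arterial sum, along which Egfl8, Mgp, Hey1, Dll4 and Car4 also changed. Higher with Gkn3 in all 11 mice were Egfl8 (325 CPM ± 54.5 against 47.4 ± 14.0), Mgp (1144 against 201), the ephrin Efna5 (77.4 against 13.4), Vcam1 (217 against 46.8), Wnt5b (91.1 against 26.5) and Nos1 (105 against 33.8). Hey1 was at 117 against 73.4 CPM and Dll4 at 162 against 84.9 CPM. Lower with Gkn3 in all 11 mice were Car4 (14.5 against 110 CPM), the metallothionein Mt1 (90.5 against 363), the hemicentin Hmcn1 (145 against 479) and Nrp2, a receptor of VEGF-C (5.88 against 63.1). Plvap, Meis2 and Chrm3 were also higher in the cells without Gkn3, and their levels came largely from WT-TgN3 5: its members held 222, 321 and 132 CPM against at most 62.7, 45.2 and 31.9 CPM in the other mice. Without WT-TgN3 5 they were at 61.4, 24.6 and 27.6 CPM in the cells without Gkn3 and 3.15, 1.13 and 2.56 CPM in those with it, while Egfl8 was at 47.8 against 326 CPM and Mgp at 213 against 1154 CPM.

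The study set CADASIL against control mice. In the arterial and arteriolar cells no gene differed between genotypes after adjustment (edgeR quasi-likelihood test on UMIs summed per mouse, Benjamini-Hochberg, 0 of 10341 genes, 0.0%). At an unadjusted p under 0.05 there were 213 genes (2.06%), and DESeq2 called 0 genes, with 146 at an unadjusted p under 0.05 (1.41%). The count was also 0 without WT-TgN3 5 and with batch as a covariate. Line and genotype cannot be told apart here.

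Notch pathway genes lay close together in both groups. Dll4 read 99.0 to 181 CPM in CADASIL mice (median 118) and 106, 112, 132, 148 and 156 CPM in control mice, a log2 difference of 0.02 ± 0.14 (SE). Hey1 read 68.0 to 126 CPM (median 108) and 73.9, 86.4, 97.9, 102 and 121 CPM, a log2 difference of 0.13 ± 0.15. The ranges overlapped almost fully for both genes. Jag1 differed by -0.11 ± 0.14, Jag2 by -0.00 ± 0.11, Notch1 by 0.05 ± 0.09, Notch4 by 0.07 ± 0.10, Nrarp by 0.08 ± 0.20 and Hes1 by -0.25 ± 0.16, all with an edgeR adjusted p of 1.00. Hes1 was at 215 CPM ± 42.4 in CADASIL mice and 264 CPM ± 59.6 in control mice. Of 27 tested genes of the pathway, 11 were higher and 16 lower in CADASIL mice, none past the threshold, with a median log2 difference of -0.04 beside -0.00 over all genes. Human NOTCH3 in the members was at 0.610 to 4.58 CPM in CADASIL mice and 0.496 to 1.68 CPM in control mice, and mouse Notch3 at 1.02 to 5.04 and 1.12 to 5.42 CPM. The highest NOTCH3 value was in R182C-TgN3 4, the library with the most smooth muscle RNA, and its part in that value was not tested. The counts do not distinguish the mutant from the wild-type transgene.

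**Figure D4:**
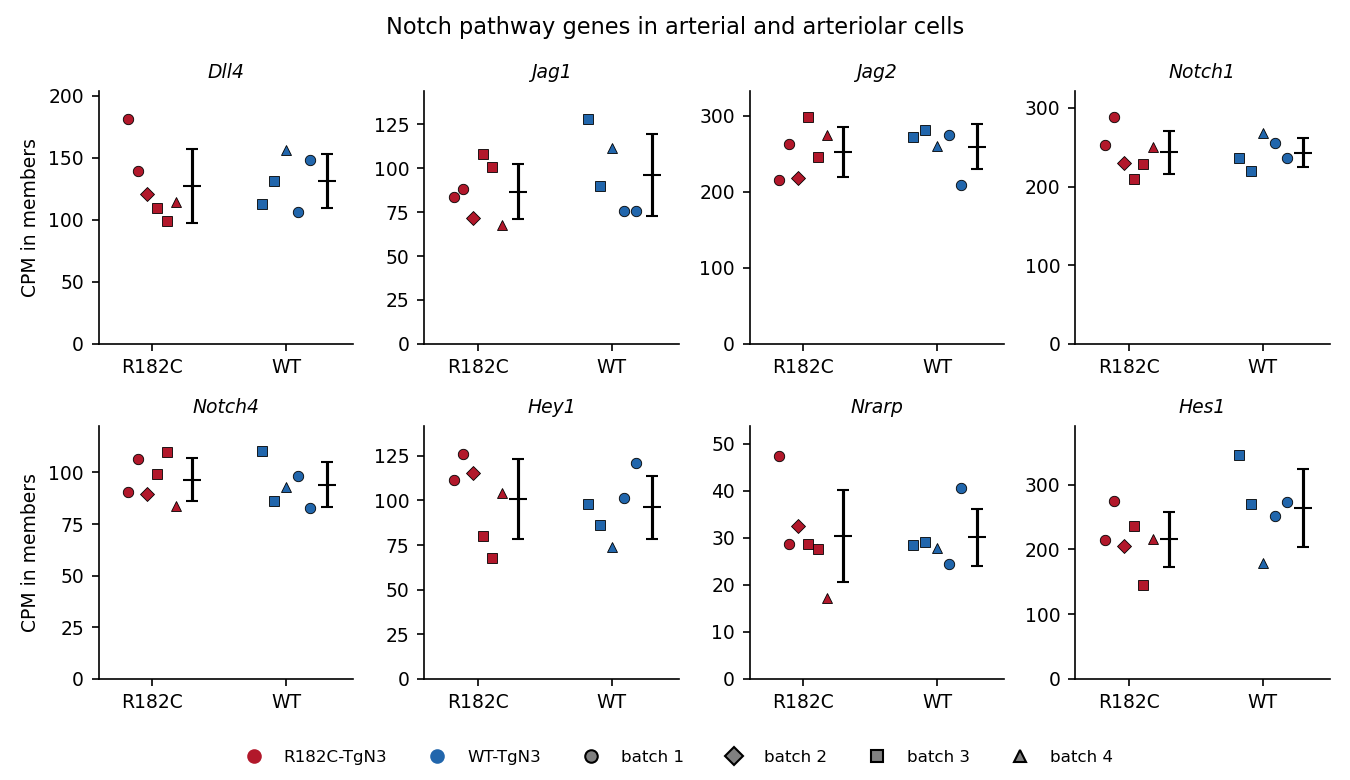
CPM per mouse of Notch pathway genes in arterial and arteriolar cells of CADASIL (R182C) and control (WT) mice. Points are mice and lines are means with SD, and the genotypes overlap for every gene shown.

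Markers of the cells themselves also lay together. Egfl8 was at 197 CPM ± 39.0 (SD, n = 6) in CADASIL and 206 CPM ± 50.6 (SD, n = 5) in control mice, a log2 difference of -0.03 ± 0.17 (SE). Mgp was at 797 CPM ± 194 and 649 CPM ± 171, a difference of 0.34 ± 0.22 that did not pass (edgeR adjusted p = 1.00). Of 19 tested arterial identity genes 8 were higher, with a median of -0.01, and of 29 vessel matrix genes 14 were higher, with a median of -0.00. No gene passed in any list.

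The other lists also had 0 genes past the threshold each, and several held more genes on one side than the other. Of 74 nuclear genes of oxidative phosphorylation, 61 were higher in CADASIL mice (median log2 difference 0.10), of 28 interferon genes 22 (median 0.06), of 22 barrier transporters 18 (median 0.06), of 19 glycolysis and hypoxia genes 15 (median 0.07) and of 6 leukocyte adhesion genes 5 (median 0.18). Of 14 vasoactive genes 5 were higher (median -0.08), of 13 guidance genes 3 (median -0.05), of 10 VEGF and angiopoietin genes 2 (median -0.13) and of 8 caveola genes 1 (median -0.05). Nearer to even were 21 TGF-beta and BMP genes with 13 higher (median 0.01), 16 ER stress genes with 10 (median 0.03), 20 dissociation stress genes with 12 (median 0.03), 11 junction genes with 5 (median -0.02), 10 shear genes with 5 (median -0.02) and 4 connexins with 2 (median -0.02). Without WT-TgN3 5, 19 of 20 dissociation stress genes were higher (median 0.13), 5 of 19 arterial identity genes (median -0.07), 10 of 29 vessel matrix genes (median -0.05), 15 of 22 barrier transporters (median 0.02) and 3 of 8 caveola genes (median -0.06), while oxidative phosphorylation (64 of 74, median 0.11) and interferon (22 of 28, median 0.06) changed little. No gene of a list was called without it either. Genes of a list are not independent of each other, and lists sharing a library share its deviations. Some lists of markers of other cells were also one-sided, none past the threshold. Higher were 4 of 4 tested smooth muscle (median 0.91), 6 of 6 microglial (median 0.38) and 5 of 5 erythroid markers (median 0.48). Mixed or lower were astrocyte (2 of 3 higher, median 0.22), fenestrated endothelial (2 of 4, median -0.13), oligodendrocyte (1 of 2, median -0.40) and choroid plexus markers (0 of 1). The smooth muscle sum was 316 CPM in R182C-TgN3 4 and at most 95.7 CPM in the other mice. The erythroid sum was 1985 to 12841 CPM in CADASIL and 2542 to 9577 CPM in control mice. The part of these markers in the values of the lists was not tested.

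The lowest p values are given as values, since none passed. Efemp2, a fibulin-like protein of elastic fibres, was at 22.8 CPM ± 3.35 in CADASIL and 15.2 CPM ± 2.84 in control mice, and its ranges of 18.4 to 26.8 and 12.3 to 18.1 CPM did not overlap. Its log2 difference was 0.60 ± 0.15 (edgeR adjusted p = 1.00). Mir99ahg, a host transcript of microRNAs, was at 35.6 CPM ± 8.07 and 55.4 CPM ± 11.5, and the antibody heavy chain gene Ighm at 6.95 CPM ± 6.62 and 1.44 CPM ± 0.678. Nusap1, Proca1 and Mkrn1 were also on the higher side, with log2 differences of 1.41, 1.02 and 0.29. Mdga2, Zfp521, Dcp1b and Map2 were on the lower side, at -0.98, -0.45, -0.37 and -1.50.

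Whether the genotype difference in the members differed from that in capillary-like cells was tested with both cell sums of each mouse in 1 edgeR fit, with mouse as a block. A single gene of 11681 was called (0.00856%), Mctp1, which encodes a calcium-binding membrane protein of the endoplasmic reticulum (chr13:76384535-77031810). In the members it read 10.4 to 18.9 CPM in CADASIL mice (median 13.6) and 5.71, 10.1, 13.0, 16.2 and 19.2 CPM in control mice, with full overlap. In capillary-like cells it read 2.34 to 5.09 CPM in CADASIL mice (median 4.26) and 1.77, 5.29, 12.3, 13.0 and 15.9 CPM in control mice. The difference of differences was 1.42 ± 0.24 on the log2 scale (edgeR adjusted p = 0.0157), and 3 control mice had capillary values above those of every other mouse. The call was lost in 8 of 20 alternatives, with edgeR adjusted p from 5.87e-06 to 1.00. In 5 of the 8 a mouse was left out (R182C-TgN3 1, 2 or 6, or WT-TgN3 2 or 3) and the difference stayed between 1.32 and 1.55 over all mice left out. With all other endothelial cells as comparator the difference shrank to 0.20 (edgeR adjusted p = 1.00), with no UMI of P2ry12, Cx3cr1, Vtn and Myh11 it was 0.88 (adjusted p = 0.911), and with simulated doublets removed 1.67 (adjusted p = 0.482). The call held without WT-TgN3 5 (1.40, edgeR adjusted p = 0.0245), where the count was 2 with Ccn1 added.

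At an unadjusted p under 0.05 this test gave 510 genes (4.37%). The next lowest p values belonged to F8, Mgat4c, Ryr2, Rarb, Cald1, Socs3, Mgll, Tmem176a and Dcn, with adjusted p from 0.692 to 0.817. F8, Rarb and Tmem176a were highest in WT-TgN3 5 (25.9, 41.0 and 96.9 CPM), and Dcn, a fibroblast gene, was at 27.3 CPM in WT-TgN3 4 and at most 1.15 CPM elsewhere. Of the 20 dissociation stress genes 17 were on the lower side (median -0.18, 12 at an unadjusted p under 0.05, none past the threshold). Of 29 Notch pathway genes 11 were on the higher side, with a median of -0.05 beside -0.00 over all genes. Without WT-TgN3 5, 19 of the 20 stress genes were on the lower side (median -0.21) and 11 of 29 Notch pathway genes on the higher side (median -0.03).

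Mice of 9 and 6 months were prepared in different batches, so age and batch cannot be told apart. With genotype as a covariate, edgeR called 91 of 10742 genes (0.847%), 62 higher (0.577%) and 29 lower (0.27%) in the mice of 9 months. DESeq2 called 199 genes (1.85%), 116 higher (1.08%) and 83 lower (0.773%). Leaving out a mouse moved the edgeR count between 44, without WT-TgN3 1, and 157, without R182C-TgN3 3, and it was 66 without WT-TgN3 5. Of the 20 leading genes 9 lost their call with some mouse left out: Slc44a5, Hic1, Dusp16, Dusp6 and Thoc6 among the rises and Il31ra, Klhl14, Rmrp and F2rl1 among the falls. The other 11 kept it in each such fit that tested them.

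The 10 leading rises included the pseudokinase Trib1 and phosphatases of MAP kinases, the latter grouped here after their values were seen. Trib1 was at 15.2 to 30.3 CPM at 9 months and 5.04 to 9.75 CPM at 6 months, with no overlap. Its log2 difference was 1.40 ± 0.21 (edgeR adjusted p = 0.00565). The phosphatases Dusp8, Dusp16 and Dusp6, which switch off MAP kinases, rose by 1.31 ± 0.19, 0.91 ± 0.16 and 0.90 ± 0.17, and the call of Dusp6 was lost in 7 of 11 fits with a mouse left out (edgeR adjusted p up to 0.102). Epha2, an ephrin receptor, rose by 0.92 ± 0.17, the transcription factors Tcf15 and Hic1 by 1.08 ± 0.19 and 1.08 ± 0.22, and Ankrd37, a hypoxia target, by 1.04 ± 0.18. Slc44a5 had the largest of the 10 differences, 1.77 ± 0.39, and lost its call in 9 of 11 such fits, and Thoc6 rose by 0.88 ± 0.18 and lost it in 6. Klf4, the flow-responsive transcription factor, rose from 740 CPM ± 74.5 (n = 6) to 1020 CPM ± 50.3 (n = 5). The ranges of 666 to 869 and 975 to 1091 CPM did not overlap, and its call was lost in 5 of 11 fits with a mouse left out. All 20 dissociation stress genes were on the higher side (median 0.54 beside 0.00 over all genes) and 6 passed: Btg2, Dusp1, Hsp90aa1, Hspa8, Dnajb1 and Nr4a1. Without WT-TgN3 5 all 20 were again on the higher side (median 0.50) and 3 passed, Dusp1, Hsp90aa1 and Hspa8, and of the 6 Dusp1 and Hspa8 kept their call with each mouse left out. The summed stress genes were 12274 to 18089 CPM at 9 months and 8152 to 12729 CPM at 6 months, and their part in the calls was not tested.

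Il31ra, the receptor of interleukin 31, was the most abundant of the leading genes that fell. It read 47.0, 49.2, 55.8, 84.5 and 135 CPM at 9 months and 149, 160, 308, 310, 333 and 384 CPM at 6 months. The ages did not overlap, and it fell by 1.99 ± 0.32 on the log2 scale (edgeR adjusted p = 0.0354). The call was lost in 9 of 11 fits with a mouse left out (edgeR adjusted p up to 0.0964), with the fall between -2.26 and -1.80. In capillary-like cells it was at 41.4 to 137 CPM and 118 to 395 CPM, so the same order of ages was seen outside the arterial cells. Tgfb2 fell from 582 CPM ± 55.5 (n = 6) to 417 CPM ± 66.9 (n = 5), ranges 533 to 681 and 368 to 531 CPM, the only called gene of the arterial identity list, and its call was lost without R182C-TgN3 1 or WT-TgN3 1, 4 or 5 (edgeR adjusted p up to 0.0882). The other leading falls were rare transcripts at 4.02 to 11.1 CPM at 6 months: Dppa2, Wdr72, Kctd16, Naa11, Klhl14, Mc1r, Rmrp, Hist2h2aa1 and F2rl1, with log2 differences from -3.92 to -1.62. Of 28 Notch pathway genes 13 were higher and 15 lower, none past the threshold, the same counts as without WT-TgN3 5. Atf4, of the ER stress list, rose from 99.6 to 158 CPM and kept its call with each mouse left out, while Eno1, of the glycolysis list, fell from 47.5 to 29.8 CPM and lost it in 8 of 11 fits, a gene whose reads can be shared with the near-identical copy Eno1b. Smooth muscle markers, 4 tested, were lower at 9 months (median -2.09, none past the threshold), and erythroid markers, 5 tested, higher (median 0.86, none past the threshold). Choroid plexus markers, 4 tested, were also lower (median -1.31), and fenestrated endothelial markers, 4 tested, higher (median 0.93, and 0.10 without WT-TgN3 5). Microglial markers were mixed, with 2 higher and 4 lower, as were astrocyte markers, with 2 and 2. None of these passed either.

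**Figure D5:**
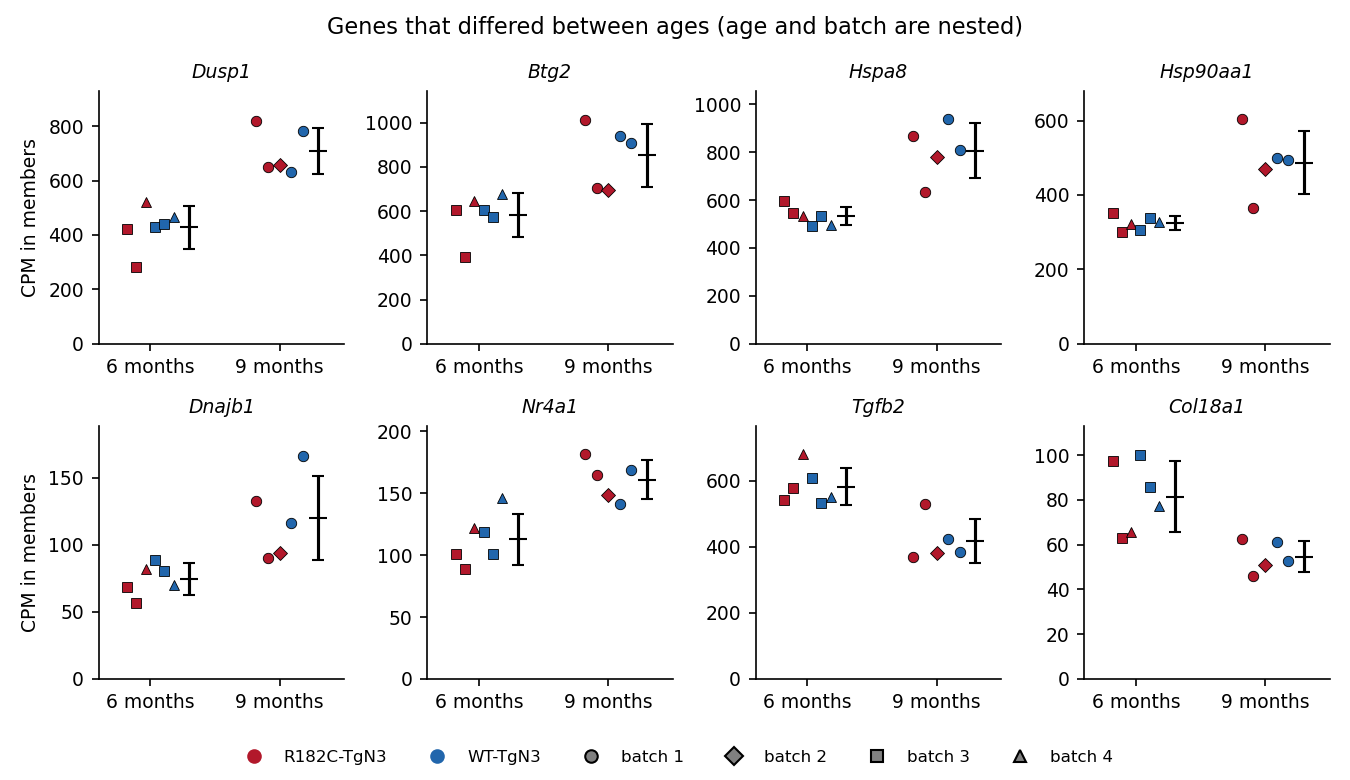
CPM per mouse at 6 and 9 months for genes that differed between ages in arterial and arteriolar cells. Points are mice, coloured by genotype, with means and SD, and batches 1 and 2 held all mice of 9 months.

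The genotype difference was also compared between ages. The edgeR genotype by age term called 0 of 11056 genes (0.0%), with 261 at an unadjusted p under 0.05 (2.36%). The lowest p values belonged to Flrt2, Ntm, Mlc1, Pla2g7, Nckap5, Rims2, Clasrp, Cdc14a, Cdh11 and Tspan7, with adjusted p from 0.531 to 1.00. Flrt2, an adhesion protein much higher in capillary-like cells, was at 45.9 and 62.1 CPM in the control mice of 9 months and at 14.2 to 33.8 CPM in CADASIL mice. Mlc1, Pla2g7 and Rims2 were highest in WT-TgN3 5, at 4.85, 20.2 and 17.4 CPM. Without WT-TgN3 5 the count was 0, and without WT-TgN3 4, which leaves that library as the single control of 9 months, it was 39.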

How the data were processed

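Per the labels and the study's methods, the authors made single-cell libraries with a 10x Genomics 3′ kit and deposited, per mouse, matrices of raw UMI counts from Cell Ranger 7.0.0 on mm10 with human NOTCH3 added, with no normalization and replicates kept apart. The members and gene lists were chosen with earlier results of these data known. UMIs were summed per mouse and cell set. CPM were formed from these sums. Ribosomal, mitochondrial, Gm and Rik genes were removed before tests, as in the study, with low counts filtered by filterByExpr and TMM scaling in edgeR 4.0.16 (R 4.3.3, robust quasi-likelihood test, Benjamini-Hochberg, threshold 0.05). DESeq2 1.42.0 was an alternative. Shares were compared by exact permutation (scipy 1.17.1, Python 3.11.15, numpy 2.4.6, pandas 2.3.3, matplotlib 3.10.9). Doublets were kept, and an alternative removed 3040 barcodes (119 members) by a simulated-doublet score (scikit-learn 1.9.0). Scripts were tested on simulated data. Ddit3 and Aldoa, whose symbols are not unique in the files, were left out of the lists.

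Named genes were the gate, markers and lists, the 20 highest and 10 lowest genes of the profile (at least 50 CPM in the higher set and the same direction in 11 mice), and up to 10 rises and 10 falls per test, or the 10 lowest p values where fewer than 5 passed. Mecom, Prl, Gh, Meis2, Chrm3, Uchl1 and the genes of the Gkn3 split were named after their values were seen. Positions are from the mm10 GENCODE annotation. Mice of both genotypes that share an age and a replicate number in the labels also share a batch. They were not shown to deviate together (r from -0.07 to 0.20 over 5 pairs, over 0.1 in 3), so numbers were not taken as pairs. Mice are the replicates. The lists and classes were recomputed without WT-TgN3 5, an alternative chosen after seeing the data.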

Additional observations from a re-analysis of the deposited data

Results flagged for a closer look

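In 148 checks of a named gene within a genotype for a mouse standing far from the rest, 6 were found. Chance gives about 1 in 20, so the number found was not above that rate. In CADASIL mice, Flrt2 was at 33.8 CPM in R182C-TgN3 4 (next 19.2 CPM) and Slc38a5 at 20.6 CPM in the same mouse (next 9.56 CPM). Both are genes of capillary and venous endothelium. In R182C-TgN3 3, the single mouse of batch 2, Fmo2, a monooxygenase, was at 73.6 CPM (next 26.9 CPM) and Ighm at 20.2 CPM (next 6.93 CPM), and this mouse also had the highest erythroid sum, 12841 CPM. Thoc6 was at 36.6 CPM in R182C-TgN3 1 (next 20.8 CPM). In control mice, Jag2 was lowest in WT-TgN3 5, at 208 CPM (next 261 CPM), the library with Prl and Gh. Leaving each of these mice out did not bring any of the 6 genes past the threshold between genotypes.

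The genotype difference of Mctp1 differed between the arterial and arteriolar cells and capillary-like cells by 1.42 ± 0.24 on the log2 scale (edgeR adjusted p = 0.0157). Its capillary values were 12.3, 13.0 and 15.9 CPM in WT-TgN3 5, 3 and 2, and 1.77 to 5.29 CPM in the other 8 mice.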

How the results depend on the processing

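The share of arterial and arteriolar cells stayed lower in CADASIL mice in each alternative, from -1.57 points without WT-TgN3 3 to -0.0906 without WT-TgN3 4, with no exact permutation p under the threshold. The count of genes differing between genotypes was 0 in each alternative other than the following. It was 0 to 1 with a mouse left out, the 1 being Slc24a3 without WT-TgN3 3, and 12 with the replicate block, in which R182C-TgN3 3, whose number has no control partner, carries no weight (edgeR, 0.102% of 11742 genes, all lower, led by Prl and Gh, which were seen only in WT-TgN3 5). Numbers were not shown to pair the mice: 3 of 5 pairs had a correlation over 0.1, and 3 of 10 mice correlated best with their own number.

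The test against capillary-like cells called 0 genes with simulated doublets removed or with all other endothelial cells as comparator, 2 at 5% mitochondrial UMIs (Ccl5 and Mctp1), 80 without the filter on low counts, and 0 to 2 with a mouse left out (0 without R182C-TgN3 1, 2 or 6, and 2 without WT-TgN3 5, Ccn1 and Mctp1). With no UMI of P2ry12, Cx3cr1, Vtn and Myh11 the single call was Dcn, not Mctp1, and it was Lum without WT-TgN3 2 and Dcn without WT-TgN3 3. The age count was 199 with DESeq2 and 82 to 118 in the other settings that kept all mice. With a mouse left out it ran from 44 to 157, with 48, 46, 55 and 58 without R182C-TgN3 1, 4 and 5 and WT-TgN3 3, and 140 without R182C-TgN3 6. Genotype by age gave 0 to 39 genes with a mouse left out: 39 without WT-TgN3 4, and 1, Ntm, without R182C-TgN3 1. Against all other endothelial cells 75 rather than 135 profile genes were at least 2-fold higher, Igfbp3 turned from 4.04 to -0.0644 on the log2 scale, and the log2 ratios of the other 19 leading higher genes shrank, Ldb2 to 0.32, Mgp to 1.103, Npnt to 1.34 and Nos1 to 1.42, against 3.97, 5.26, 4.41 and 4.87. With at most 1 Plvap UMI, a limit added after seeing the data, the age count was 101 and the genotype count 0. The cause of these changes was not tested.

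Each mouse gave 206 to 762 members, so low genes rest on few molecules, and several named genes have under 200 UMIs over all mice. Libraries at 9 months tended to be deeper, with overlap (median 5486 to 7574 against 3974 to 6234 UMIs per member). The p values measure the spread between mice of a line, except in the test against capillary-like cells. There, with mouse as a block, they measure the spread over mice of the difference between both cell sums. Genotype with line, and age with batch, cannot be told apart.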

Other observations

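Uchl1, a ubiquitin hydrolase best known from neurons and named after its values were seen, was at 38.6 CPM ± 4.67 (SD, n = 11) in the arterial and arteriolar cells, 3.01 CPM in capillary-like, 3.32 CPM in venous and 43.8 CPM in large-artery cells. It was higher than in capillary-like cells in 11 of 11 mice, with 40.0 CPM in CADASIL and 36.9 CPM in control mice. It also differed by the Gkn3 split, which was not matched for the arterial sum. Members with at least 3 Gkn3 UMIs held 55.8 CPM ± 7.03 of Uchl1 and those with none 16.9 CPM ± 4.93. Of the neuronal list, 2 genes were at 5 CPM or more, and Stmn2 was higher in the members of all mice while the other was not.

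The Prl of WT-TgN3 5 was uneven among its members. A single cell held 15202 of 22718 UMIs and 323 of 497 members held none. The members with more than 1 Plvap UMI, 36 cells, held 26 of these UMIs. In capillary-like cells of the same mouse Prl was at 137 CPM and Gh at 290 CPM, and in its large-artery cells at 781 and 4817 CPM.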
